A study of Mus musculus with 6 samples.

Results

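Small RNAs of cultured mouse spermatogonial stem cells in which Mili had been knocked out were compared with those of wild type cells, with 1 untreated library on each side. These 2 libraries were chosen by their labels from the 6 of the series. Each library was a list of distinct sequences with the number of reads of each. Sequences of 18 to 35 nt were kept, and all their reads were divided into small RNA classes and source genes in both libraries.

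MILI (gene Piwil2) is a Piwi protein of the male germ line. Piwi proteins carry piRNAs, small RNAs somewhat longer than microRNAs that guide the silencing of transposons and are cut from long single-stranded transcripts without Dicer. Most piRNAs begin with U. Where a piRNA guides the cutting of a complementary transcript, the new 5′ end lies opposite the 10th base of the guide, so partners overlap by 10 nt and the second one tends to carry A at position 10. microRNAs are cut from hairpins by Drosha and Dicer and are held by Argonaute proteins, which do not need MILI.

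Per the labels, the spermatogonial stem cells, from which sperm production is renewed, came from a male aged 15 days that was the F1 of C57BL/6 and DBA2 and carried actin-EGFP, while the strain field reads C57BL/6 alone. All libraries share this source, and the cells were grown on mouse embryonic fibroblast (MEF) feeders. Plasmids for spCas9 and guide RNAs against mHen1 and Mili were transfected, and colonies grown from single cells were picked and checked by Sanger sequencing, so the mili-/- library may stand for 1 clone and carries whatever else that clone acquired. Whether the wild type cells went through transfection and picking is not given in the labels. Library input was 0.5 µg RNA. The descriptions of both libraries name added spike-ins, while the protocol names them for wild type and mhen1 knockout RNA, and with no sequence given they were not used. The MILI immunoprecipitate from wild type cells, the wild type library treated with NaIO4 (which removes RNAs with an unmodified 3′ end) and the untreated Hen1 knockout library are given beside some results as levels only.

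The wild type library held 7905850 reads, of which 7322408 were 18 to 35 nt long, and the knockout library held 5310972 and 4808088. There was 1 library on each side, so nothing below has a check by replicates, each comparison is of these libraries, and no p-value is given. Levels are in rpm, reads per 1000000 reads of 18 to 35 nt, unless they are said to be per 1000000 microRNA reads, and a ratio is knockout over wild type with 0.5 added to each count. Brackets give 95% intervals, by the exact method of Clopper and Pearson for a share and from both read numbers for a ratio. Amplified reads that carry no molecular identifier are not independent molecules, and these intervals hold counting error alone. Shares of a library sum to a fixed total, so where 1 class is lower the others are higher.

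A read was called piRNA-like when it was 25 to 31 nt long and had no exact sense match to an annotated small RNA, and it was given to a source gene when it matched that gene's transcripts in the sense direction. The sequences that follow show the main forms of such reads. They are printed 5′ to 3′ as the files give them, with T for U, and capitals mark the first base and position 10. Positions refer to GRCm38, annotated by GENCODE M21. The first group was read in wild type and had no read in the knockout.
Gm38246: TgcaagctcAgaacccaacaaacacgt
Gm38246, upstream: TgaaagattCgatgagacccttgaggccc
Rpl32: TaagaaccgAaaagccattgtagaaagagc
histone H3 genes: TtcaagaccGacctgcgcttccagagc
The first, at chr3:51104459-51104485 on the plus strand in the only exon of the long non-coding RNA Gm38246, had 2420 reads in wild type and 0 in the knockout, at least 530-fold lower with the knockout set to the floor of 3 reads. The second, at chr3:51104263-51104291 in the same exon, had 801 and 0 reads. The third, at chr6:115805623-115805652 on the minus strand in the coding sequence of exon 3 of 3 of the ribosomal protein gene Rpl32, had 854 and 0, and it also matches the transcripts of other genes. The fourth matched 9 coding genes including Hist1h3a, Hist1h3b and Hist1h3e, with 1595 and 0. In the MILI immunoprecipitate these sequences had 12501, 5453, 13015 and 69249 reads.

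The second group was read as often or more often in the knockout, although it passed the same length and match rules.
near tRNA-Pro-AGG: GgctttggtCtaggggtatgattctcgc
near tRNA-Gly-GCC: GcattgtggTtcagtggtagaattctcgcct
miR-182-5p, 1 more base: TttggcaatGgtagaactcacaccgt
shared run with Y RNA or RNase RNA: TtctcactaCtgcacttgactagtctta
Rpl13: TggaatgatGacattctccggaatcgctgt
Snrpb: AttcatgatGaaatagatccttgactgaag
The fragment nearest to tRNA-Pro-AGG, the most abundant piRNA-like sequence of both libraries, had 13538 reads in wild type and 9667 in the knockout, a ratio of 1.09 (1.06 to 1.12). The fragment nearest to tRNA-Gly-GCC had 4496 and 7638 reads, and miR-182-5p with 1 more 3′ base had 8654 and 9228. The fourth shares a run of 16 nt with Rny1, Rny3, Rmrp or Rpph1 and had 2214 and 5012 reads. The Rpl13 sequence, at chr8:123103033-123103062 in an exon of a non-coding transcript of this ribosomal protein gene, had 324 and 395 reads, and the Snrpb sequence, at chr2:130172949-130172978, likewise in a non-coding transcript, had 79 and 62. These 6 sequences had 2214, 1188, 660, 19, 2 and 1 reads in the immunoprecipitate, a library of 25240941 reads of 18 to 35 nt.

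The knockout library lacked the piRNA peak of the length profile. Reads of 25 to 31 nt made up 46.5% (46.4 to 46.5) of wild type and 19.2% (19.2 to 19.2) of the knockout, while reads of 20 to 24 nt made up 39.4% and 64.0%. Among reads in the sense of genes, the most common length in wild type was 28 nt, at 55721 rpm, against 1085 rpm in the knockout. The fold was largest at 27 nt, where 53244 rpm in wild type stood against 1012 rpm, 52.6-fold lower, and it was 51.4-fold at 28 nt, 31.1-fold at 26 nt and 23.0-fold at 31 nt. It was smaller outside this window, with 10.9-fold at 25 nt, 10.3-fold at 32 nt, 3.59-fold at 23 nt and 1.67-fold at 18 nt. In the knockout, sense reads of genes lay between 715 and 1824 rpm at every length from 18 to 35 nt, with no peak.

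**Figure D1:**
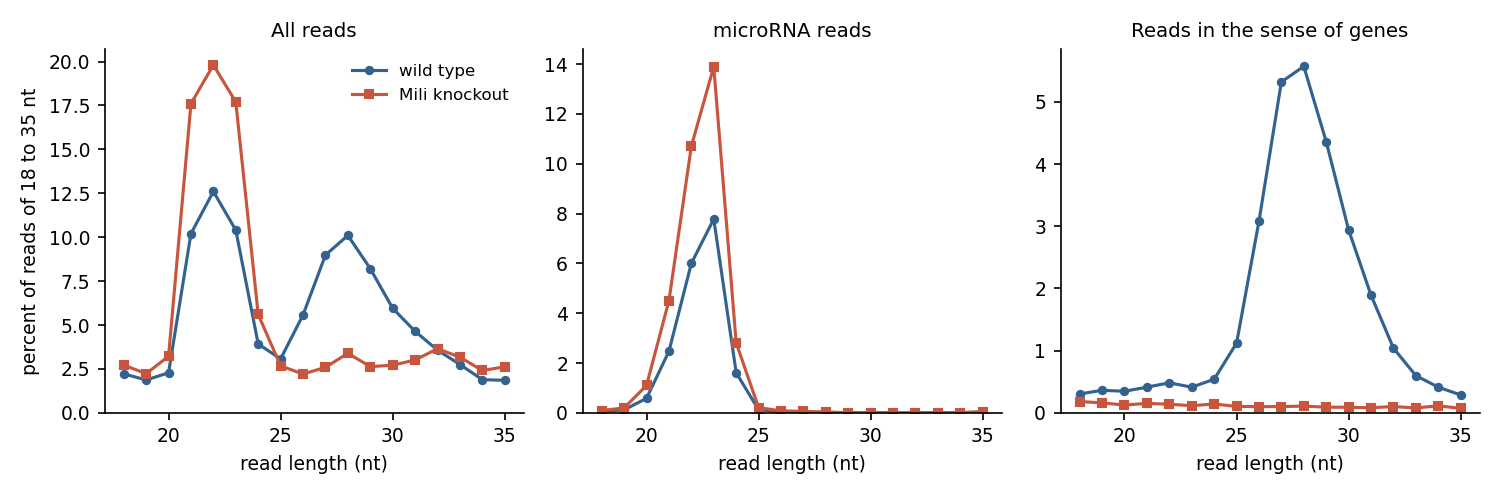
Share of each read length (x axis, nt) among reads of 18 to 35 nt (y axis, percent, on a different scale in each panel) in the wild type and Mili knockout libraries, for all reads, microRNA reads and reads in the sense of genes. The wild type maximum of gene reads at 28 nt has no counterpart in the knockout, while the microRNA maximum at 23 nt is higher there, at 13.9% against 7.78%.

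The first base of the reads differed in the same way. Of all reads of 25 to 31 nt, 68.9% (68.8 to 68.9) began with T in wild type and 28.8% (28.7 to 28.9) in the knockout, a difference of -40.1 percentage points. Of those in the sense of genes, 83.2% began with T in wild type and 29.2% in the knockout, where A took 27.4%, C 22.8% and G 20.5%, so that no base stood far above the others. A at position 10 was found in 30.9% of the wild type gene reads and 24.1% of those in the knockout. Sense reads of genes of 18 to 24 nt also began with T less often in the knockout, at 28.2% against 69% in wild type. All reads of 20 to 24 nt, whatever their class, began with T in 68.3% of wild type and 67.0% of knockout reads.

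piRNA-like reads made up 39.6% (39.6 to 39.7) of wild type and 9.87% (9.84 to 9.89) of the knockout, 4.02-fold lower (4.00 to 4.03), or 7.18-fold lower per microRNA read. The part in the sense of genes was 24.3% of wild type and 0.675% of the knockout, 36.0-fold lower (35.6 to 36.4), or 64.4-fold per microRNA read. By kind of gene the fold was 37.1 (36.7 to 37.5) for protein-coding genes, 24.9 (24.0 to 25.9) for long non-coding RNAs and 35.7 (31.3 to 40.7) for pseudogenes. Reads with antisense matches alone were 3.97-fold lower (3.89 to 4.05). Distinct gene-sense sequences of 25 to 31 nt numbered 460107 in wild type and 10260 in the knockout, at different depths.

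piRNA-like reads that matched no transcript were only 1.60-fold lower, at 14.4% of wild type and 8.95% of the knockout. No genome sequence was used here, so piRNAs from outside annotated transcripts, introns and repeats fall in this group along with altered forms of known small RNAs and fragments of those missing from the reference. Nuclear tRNAs and 5.8S rRNA are in no file used here. Their sequences, 36 and 1, were written from memory and not compared with a database, and complete 18S and 28S rRNA and other tRNAs were not in the reference, so such fragments can be counted as piRNA-like or in the sense of genes. Every tRNA value below rests on these written sequences, and when they were left out, the ratio of piRNA-like reads was 0.293 in place of 0.249. The group was therefore divided, by a rule chosen after the data were seen, by whether a read shares a run of 16 nt with an annotated small RNA. With such a run the ratio was 1.45 (1.44 to 1.46), with shares of 3.62% and 5.24%, and most of these reads shared their run with a tRNA (2.12% and 2.55%) or a microRNA (0.570% and 0.851%). Reads without it were 10.7% of wild type and 3.70% of the knockout, 2.90-fold lower (2.88 to 2.91), and 69.4% of the wild type reads and 19.9% of the knockout reads began with T.

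Single sequences fell into separate groups. Of 1758 gene-sense sequences of 25 to 31 nt whose reads in the pair summed to 50 or more, 1710 (97.3%) were at least 10-fold lower in the knockout, 1654 had no knockout read and 40 (2.28%) had a ratio of at least 0.5. The 1654 passed the limit on wild type reads alone, so the share lost depends on that limit. Of the lost sequences 94.9% began with T, and of the 40 kept ones 37.5%. Of 1642 sequences with no transcript match at the same limit, 285 (17.4%) were at least 10-fold lower and 1284 (78.2%) had a ratio of at least 0.5, and 740 of the latter shared a run of 16 nt with a small RNA. The median number of reads in the immunoprecipitate was 415 for lost and 2 for kept gene-sense sequences, and 327 and 5 for those with no transcript match. These numbers were not scaled to the wild type level of each sequence.

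Among 3191 source genes with at least 100 piRNA-like sense reads in both libraries together, 2958 (92.7%) were lost, which means at least 10-fold lower in the knockout, and 19 (0.595%) were kept, with a ratio of at least 0.5, of which 3 (0.0940% of all) were at least 2-fold higher. The other 214 lay between, with a median ratio of 0.143. The 3191 genes held 1456274 reads in wild type and 19052 in the knockout, so most passed the read limit through wild type reads. The share lost depended on that limit, with 82.3% from 30 reads and 98.1% from 300 reads. The median ratio over all 3191 was 0.0102, or 0.0232 when genes with no knockout read were set at the floor of 3 reads, and 958 genes had no knockout read. The lost genes held 79.2% of the gene-sense reads of wild type and 27.8% of those of the knockout, and the 19 kept genes held 0.381% and 17.7%. Just inside the limit for lost stood Pygb (130 wild type reads and 8 knockout reads) and Rbm38 (129 and 8), and just outside it Eef2 (766 and 50) and Usp19 (156 and 9.85, since reads with several genes were divided evenly). Just inside the limit for kept stood Npepps at a ratio of 0.541, and just outside it the olfactory receptor gene Olfr45 at 0.495, which had 41 and 1 reads of its own. These calls were made in rpm. Per microRNA read 3101 genes were lost and 14 kept. On that scale Snrpb (0.407), Gm15564 (0.402), Cd320 (0.394), 1110038B12Rik (0.343) and Npepps (0.303) fell under the limit for kept.

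**Figure D2:**
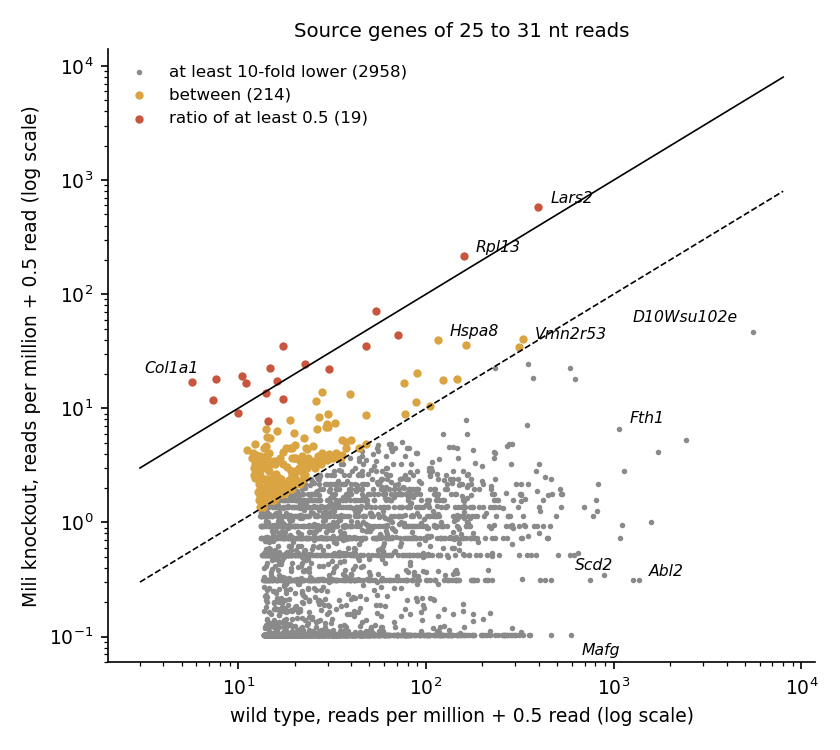
piRNA-like sense reads of the 3191 source genes in wild type (x axis) and in the Mili knockout (y axis), in reads per 1000000 with 0.5 read added, both axes on a log scale. The solid line marks equal levels and the dashed line 10-fold lower, and points are coloured by call. At or under the dashed line lie 2958 genes, and 19 have a ratio of at least 0.5. Of the latter, Lars2 and Rpl13 have the most knockout reads. Whether the Lars2 reads are rRNA fragments was not tested.

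The 12 genes with the most piRNA-like sense reads in wild type were all lost. They held 8.24% of the gene-sense reads, and 580 genes were needed to reach 50% of them, so the wild type reads were spread over many transcripts. D10Wsu102e (chromosome 10, 83360221 to 83488505) led with 5551 rpm in wild type, 46.4 rpm in the knockout and 7887 rpm in the immunoprecipitate, 119-fold lower (105 to 136). Reads of this gene match other genes in part, and with reads of 1 gene only it had 34589 and 113 reads. The long non-coding RNAs Gm38246 (chromosome 3, 51103660 to 51105170) and Gm30948 (chromosome 12, 115262684 to 115287908) followed with 2439 and 1715 rpm in wild type, and with 5.20 and 4.06 rpm in the knockout they were 460-fold (311 to 681) and 412-fold (264 to 643) lower. Gm38246 thus gave 17863 reads in wild type and 25 in the knockout.

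Protein-coding genes of varied function followed. Noct, which encodes the circadian phosphatase nocturnin, had 1582 rpm in wild type and 0.901 in the knockout, 1574-fold lower (742 to 6980). Abl2, a tyrosine kinase, had 9938 reads in wild type and 1 in the knockout, a ratio of 0.000230 (3.88e-06 to 0.000854), and Scd2, a stearoyl-CoA desaturase, had 9305 and 1, a ratio of 0.000246 (4.14e-06 to 0.000912). Tmem245 had 1140 and 2.75 rpm, 400-fold lower (233 to 686), and Fth1, the ferritin heavy chain, had 1066 and 6.45 rpm, 163-fold lower (114 to 232). Cbx5, which encodes the heterochromatin protein HP1 alpha, had 828 and 2.08 rpm, 379-fold lower (204 to 705). Rab11fip4 (a Rab11 effector) and Gabpb2 (a subunit of the transcription factor GABP) had 1077 and 884 rpm in wild type, against 0.624 and 0.243 rpm. All 12 stood at 1455 rpm or more in the immunoprecipitate.

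Several strong wild type sources had no read at all in the knockout. Mafg, a small Maf transcription factor (chromosome 11, 120625117 to 120633600), had 4330 wild type reads (591 rpm) and was at least 948-fold lower. March8, a membrane-bound ubiquitin ligase, had 3413 reads (at least 747-fold lower), and Atxn1l, a paralog of ataxin 1, had 2620 (at least 573-fold). Ing5, a reader of histone methylation, and Snx30, a sorting nexin, had 2406 and 2301 reads and were at least 527-fold and 504-fold lower. Gm8113, a predicted gene of chromosome 14, had 2585 reads (at least 566-fold), though its most read sequence also lies in the transcripts of other genes. These 6 genes had 487 to 1086 rpm in the immunoprecipitate.

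The genes with the most reads left in the knockout were mostly others than the leading wild type sources. Lars2 (mitochondrial leucyl-tRNA synthetase, chromosome 9, 123366927 to 123462666) gave the most, with 395 rpm in wild type and 583 rpm in the knockout, a ratio of 1.48 (1.40 to 1.56), or 0.826 per microRNA read. These were 501 distinct sequences in the knockout, the most abundant with 1.89% of them, and 22.6% began with T. The knockout reads of Lars2 shared no run of 16 nt with an annotated small RNA. Complete rRNAs were missing from the reference, however, so whether the Lars2 reads are rRNA fragments was not tested. Rpl13 had 159 and 215 rpm, a ratio of 1.36 (1.25 to 1.47) or 0.758 per microRNA read, and 98.9% of its knockout reads shared a run of 16 nt with an annotated small RNA, the sequence printed above among them, whose run is of a snoRNA. For Gm37608, with 54.5 and 70.9 rpm, and Tmem38b, with 17.3 and 35.4 rpm, all knockout reads shared such a run, and each had 2 distinct sequences in the knockout. Snrpb, which encodes a core protein of spliceosomal snRNPs, had 48.1 and 34.9 rpm, and the long non-coding RNA 1110038B12Rik 71.0 and 43.5 rpm.

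The kept genes were described by further features. Of the 19, 9 were long non-coding RNAs and 10 protein-coding, against 92 and 2847 of the 2958 lost genes. An annotated snoRNA lay inside 3 of the 19 on the same strand, Rpl13, 1110038B12Rik and Rian, and inside 94 of the lost genes, 3.18%. Genes with a snoRNA inside had a median ratio of 0.0327 over 120, against 0.00955 over the 3071 without, or 0.0327 against 0.0229 with genes of no knockout read (9 and 949) at the floor. The letters TGATGA, searched on the read strand only and found in 20.6% of the distinct reads of annotated snoRNAs of this length, stood in 1.29% of distinct gene-sense sequences. By reads they stood in 1.23% of wild type and 7.70% of knockout gene-sense reads, with 2995 and 519 rpm. In the knockout they stood in 98.9% of the reads of Rpl13, all of those of Cd320 and 73.2% of those of Snrpb. For the kept genes 1110038B12Rik, Lars2, Rian and Npepps the share was 17.2%, 12.1%, 9.89% and 8.10%. The letters stood in no knockout read of all other kept genes. These were Gm37608, Tmem38b, Gm15564, Col1a1, Gm48617, 1110051M20Rik, AA474408, Olfr161, Gm26870, Morf4l1, B930036N10Rik and B230208H11Rik. Of the 31 knockout reads of the lost gene Fth1, 38.7% had them. Abl2, Scd2 and Noct had none, from only 1, 1 and 4.33 knockout reads. The median level of the kept genes in the immunoprecipitate was 12 rpm against 64.3 for the lost ones. In wild type the medians were 16.1 and 30.2 rpm. The median ratio of immunoprecipitate to wild type level was 0.600 for kept and 2.11 for lost genes.

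The 3 genes at least 2-fold higher in rpm rest on few reads, and none was 2-fold higher per microRNA read. The long non-coding RNA B230208H11Rik had 41 reads in wild type and 82 in the knockout (ratio 3.03, 2.08 to 4.40), Col1a1, a fibrillar collagen made by fibroblasts, had 55 and 86 (2.37, 1.69 to 3.33), and Tmem38b had 127 and 170 (2.04, 1.62 to 2.56). Per microRNA read their ratios were 1.69, 1.33 and 1.14. Among genes with at least 300 reads, the next after the kept ones were Hspa8, a chaperone gene with 3 snoRNAs annotated inside, Eif5 with 1, Olfr639 with none and Rpl7a with 3, at ratios of 0.345, 0.339, 0.228 and 0.217. Of the reads of Olfr639, only 88 and 3 were of that gene alone. D10Wsu102e and the vomeronasal receptor gene Vmn2r53 were among the 10 genes with the most knockout reads as well, with 223 and 196 reads. A sequence with 156 reads in wild type and 231 in the knockout matched 7 coding genes, D10Wsu102e, Olfr374 and Olfr161 among them, so its source could not be decided.

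Gene lists were described by the same calls, beside 92.7% lost and a median ratio of 0.0102 over all genes. Of 35 genes of the piRNA pathway, 9 had enough reads and 8 were lost. Dnmt3a, a de novo DNA methyltransferase, had 265 rpm in wild type and 0 in the knockout, Tex15, a nuclear silencing factor, 66.5 and 3.12, Mov10l1, the piRNA-processing helicase, 37.3 and 1.66, and Hsp90aa1, the chaperone, 124 and 17.7, which put it between the limits. All 16 genes of the spermatogonial stem cell list with enough reads were lost, including Trim71, a ubiquitin ligase (752 rpm and 0.208), Ccnd2, cyclin D2 (275 and 4.78), Lin28b, a let-7 inhibitor (78.0 and 0), and Foxo1 (61.3 and 2.92). All 8 of the microRNA pathway were lost too, among them the Argonaute genes Ago2 (148 and 1.04 rpm), Ago1 (144 and 0) and Ago3 (82.1 and 0), Tnrc6b, which encodes an Argonaute partner (88.8 and 0.624), and Dgcr8, the partner of Drosha (78.9 and 1.25). Of 66 histone genes 61 were lost, and of 80 ribosomal protein genes 78, with Rpl13 kept. List members passed the read limit mostly through wild type reads. Under it, genes of the piRNA pathway and stem cell lists went both ways. In wild type and the knockout, Ddx4 had 36 and 12 reads, Asz1 13 and 13 and Itga6 52 and 22. Tdrd9 had 55 and 0, and Mycn 64 and 0.

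Genes of the housekeeping and translation factor lists were lost less deeply. The median ratio over all genes was 0.0102, or 0.0232 with genes of no knockout read at the floor. Of 27 housekeeping genes 15 were lost and 12 lay between the limits, with a median ratio of 0.0699, and of 16 translation factors 9 were lost and 7 lay between, with a median of 0.0748. Within these lists Eif4ebp2, a repressor of translation initiation, had 617 rpm in wild type and 0.416 in the knockout, while Eef1a1, an elongation factor, had 77.4 and 8.74 and Pabpc1, a poly(A)-binding protein, 89.0 and 11.4. Ftl1 and Ybx1 had 464 and 237 rpm in wild type, against 2.29 and 1.04. Of 13 chromatin genes 9 were lost. Of the 26 fibroblast genes listed as markers of the feeders, 21 had any read and 4 had enough. Fn1 (164 and 7.76 rpm) and Lgals1 (21.3 and 0) were called lost, Timp1 (13.0 and 1.46) lay between and Col1a1 was kept. The call of Fn1 does not hold on reads of 1 gene only, of which it had 130 in wild type and 36 in the knockout. Under the read limit the genes went both ways. Col1a2 had 13.1 and 18 reads, and Thbs1, Dcn and Tagln had 0 wild type reads against 11, 6 and 4. S100a6, Timp2 and Col6a1 had 20, 15 and 9 wild type reads against 0 in the knockout, and Col5a1 had 25 and 10. All 21 genes summed to 1673 and 246 reads, 4.45-fold lower (3.89 to 5.09), with 1200 of the 1673 given to Fn1.

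Within protein-coding transcripts the 3′ untranslated part lost most. Reads there were 60.7-fold lower (59.5 to 61.8), those in coding sequence 25.8-fold (25.3 to 26.2) and those in the 5′ untranslated part 18.5-fold (17.8 to 19.4). The 3′ untranslated part held 62.9% of such reads in wild type and 38.4% in the knockout, while coding sequence held 28.6% and 41.1%.

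The deeper a gene-sense sequence had been read in the MILI immunoprecipitate, the more of its reads were missing from the knockout. Sequences with no read there were 13.0-fold lower (12.8 to 13.2), those with 1 to 9 reads 51.8-fold (50.5 to 53.2), those with 10 to 99 reads 172-fold (164 to 180) and those with 100 or more 423-fold (390 to 459). The immunoprecipitate came from wild type cells, so abundant wild type sequences are also read more often in it. microRNAs had a ratio between 1.75 and 1.80 in all 4 groups. tRNA fragments of 25 to 31 nt had ratios of 1.15 to 1.73, and sequences with no transcript match went from 2.14-fold lower with no immunoprecipitate read to 1.11-fold lower with 100 or more.

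**Figure D3:**
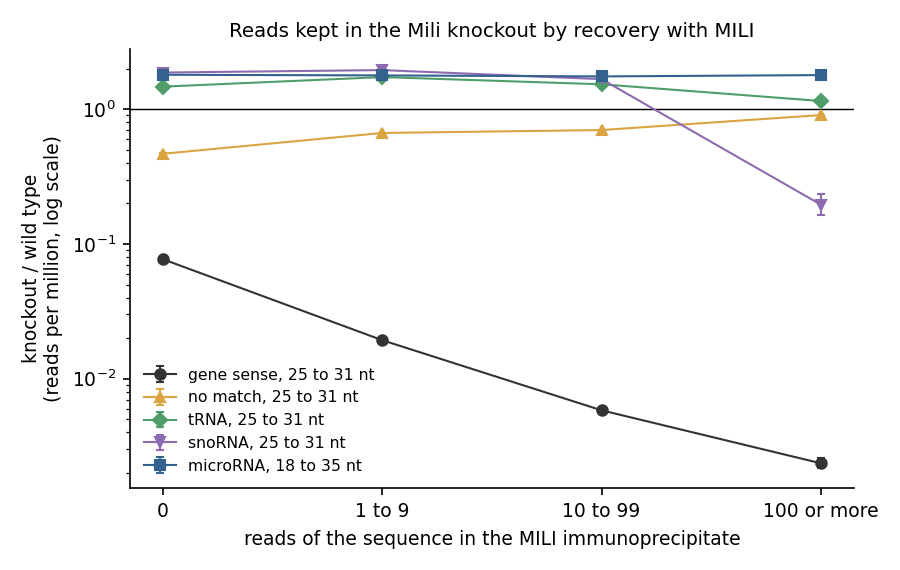
Knockout over wild type ratio of reads per 1000000 (y axis, log scale, bars are 95% counting intervals) for sequences grouped by their number of reads in the MILI immunoprecipitate (x axis), by class. Gene-sense reads go from 0.0769 to 0.00236, microRNAs stay between 1.75 and 1.80, and snoRNA fragments with 100 or more such reads, 967 reads in wild type and 124 in the knockout, lie at 0.196.

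Overlapping pairs of sense and antisense reads were nearly absent from the knockout. On the longest transcript of each gene, 10.8% of the wild type piRNA-like reads, 17.6% of those in the knockout and 14.9% of those in the immunoprecipitate lay antisense. In wild type, overlaps of 1 to 20 nt between 5′ ends gave 86265 pairs, of which 12525 (14.5%) were at 10 nt. That is 3.23 times the mean of the other 19 overlaps. In the knockout there were 89.2 pairs in all, 5.01 of them (5.61%) at 10 nt, 1.13 times the mean of the others, and the 10-nt pairs numbered 1711 and 1.04 per 1000000 reads of 18 to 35 nt. A pair needs a sense and an antisense read, so the number of pairs depends on both. Wild type had 1556803 sense and 189279 antisense reads, and the knockout 27140 and 5783. The fall in pairs is thus not separate from the fall in reads. The immunoprecipitate had 18.4% at 10 nt. With so few pairs a peak of the wild type kind was not detectable in the knockout, and its highest values, at 15 to 17 nt, rest on few reads.

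**Figure D4:**
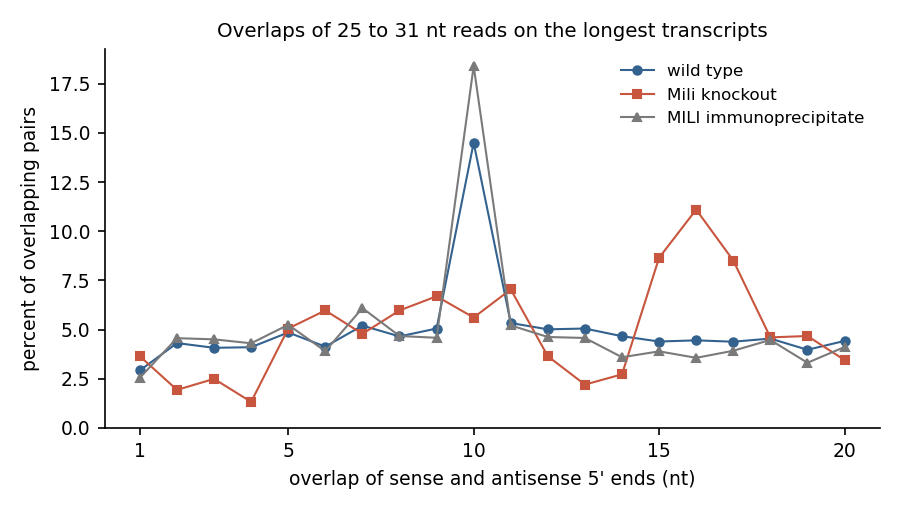
Share of overlapping pairs (y axis, percent) at each overlap of sense and antisense 5′ ends (x axis, nt) for wild type, Mili knockout and the MILI immunoprecipitate. Wild type and the immunoprecipitate peak at 10 nt with 14.5% and 18.4%, and the knockout profile comes from 89.2 pairs.

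microRNAs made up 18.9% of wild type reads and 33.8% of knockout reads, a ratio of 1.79 (1.78 to 1.79), so they were compared with each other per 1000000 microRNA reads. The arms that the results turn on are printed from RefSeq (GRCm38.p6), 5′ to 3′, with the seed, bases 2 to 8, in capitals.
miR-741-3p: uGAGAGAUgccauucuauguaga
miR-871-3p: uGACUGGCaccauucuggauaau
miR-470-5p: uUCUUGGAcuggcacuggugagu
miR-183-5p: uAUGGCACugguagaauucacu
miR-96-5p: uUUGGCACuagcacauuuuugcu
miR-182-5p: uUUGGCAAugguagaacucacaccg
miR-10a-5p: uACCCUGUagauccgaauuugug
miR-199a-5p: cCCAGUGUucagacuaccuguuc
miR-214-3p: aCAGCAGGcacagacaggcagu
miR-181a-5p: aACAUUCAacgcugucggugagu
miR-98-5p: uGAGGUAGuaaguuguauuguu
miR-3471: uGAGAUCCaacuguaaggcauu
The seeds of these 12 all differ, and that of miR-98-5p is the let-7 seed. Of 206 arms whose reads in the pair of libraries summed to 200 or more, 159 lay within 1.5-fold of equal levels, 2 (0.971%) were at least 2-fold higher in the knockout and 6 (2.91%) at least 2-fold lower. The median ratio was 1.01, with the middle 50% between 0.846 and 1.24.

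The microRNAs of the X-linked germ line cluster led both libraries at nearly the same level. miR-741-3p had 168848 per 1000000 microRNA reads in wild type and 172227 in the knockout, miR-871-3p 154299 and 155500, and miR-470-5p 63283 and 62323. The 40 arms of this cluster summed to 53.8% of microRNA reads in wild type and 54.4% in the knockout, a ratio of 1.01, and none of the 27 with enough reads passed the 2-fold limit. The cluster of miR-183, miR-96 and miR-182, whose hairpins are transcribed together, was lower. miR-183-5p had 54582 and 40832 (ratio 0.748, 0.740 to 0.756), miR-96-5p 24207 and 16072 (0.664, 0.653 to 0.675) and miR-182-5p 14147 and 12763 (0.902, 0.885 to 0.920), and all 6 arms with enough reads had ratios under 1, the lowest being miR-96-3p at 0.347 (0.267 to 0.452) from 192 and 78 reads. miR-10a-5p, from within the HoxB cluster, had 20854 in wild type and 9589 in the knockout, a ratio of 0.460 (0.451 to 0.469). miR-10b-5p, which has the same seed, went the other way, with 3500 and 5514 per 1000000 microRNA reads. The untreated Hen1 knockout, counted over sequences read in either compared library, lay on the same side of wild type, with 9117 for miR-10a-5p, 8309 for miR-10b-5p, 34247 for miR-183-5p and 14160 for miR-96-5p. Both comparisons share the wild type library. Of the miR-200 family, miR-141-3p had a ratio of 0.475 from 389 and 217 reads.

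The higher microRNAs included those listed for fibroblasts, among others. miR-181a-5p, which is not on that list, had 163 reads in wild type and 447 in the knockout (ratio 2.33, 1.95 to 2.79). It and miR-214-3p, with 137 and 326 (2.02, 1.66 to 2.47), passed the 2-fold limit. miR-365-3p (1.97) and miR-193b-3p (1.95) came next. miR-199a-5p had 4220 and 9438 reads (1.90, 1.84 to 1.97), miR-100-5p 1752 and 3515 (1.71) and miR-10b-5p 4840 and 8956 (1.58). Per 1000000 microRNA reads, the Hen1 knockout was above wild type for these too, with 430 against 118 for miR-181a-5p, 369 against 99.1 for miR-214-3p and 8682 against 3052 for miR-199a-5p. All 9 fibroblast arms with enough reads had a ratio above 1, from 1.06 to 2.02, and the list summed to 1.48% of wild type microRNA reads and 2.33% of those in the knockout. The list of meiotic and later germ cells, with 2 arms above the read limit, summed to the same ratio, 1.57. The let-7 family, whose 10 arms with enough reads ranged from 1.09 to 1.82, summed to 0.765% and 1.17%, and let-7a-5p had 1576 in wild type, 2545 in the Mili knockout and 3857 in the Hen1 knockout. In the list of undifferentiated spermatogonia, miR-146b-5p had a ratio of 0.908, miR-21a-5p 1.39 and miR-222-3p 1.86. The miR-290 and miR-302 clusters of pluripotent cells had a median of 0.735 over 7 arms, and the clusters of miR-17 and miR-106b 0.931 over 15. Blood, endothelial and muscle arms were few, with 1, 1 and 0 arms above the read limit. The part of feeder RNA in the values of any of these lists, the fibroblast list included, was not tested.

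**Figure D5:**
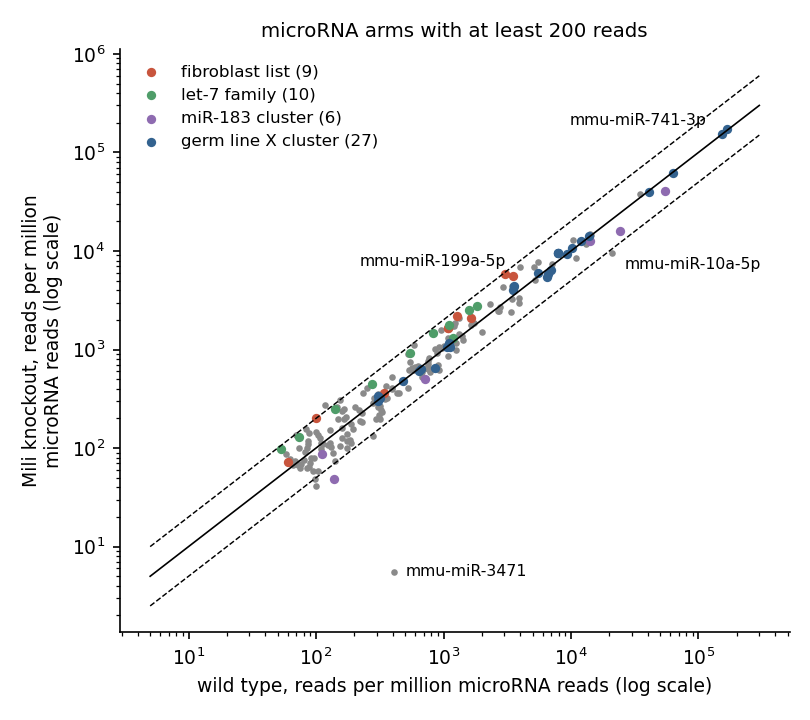
The 206 microRNA arms in wild type (x axis) and in the Mili knockout (y axis), in reads per 1000000 microRNA reads on log scales, with lists in colour. The solid line marks equal levels and the dashed lines 2-fold, and miR-3471 lies farthest from the diagonal.

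miR-3471 stood apart from all other arms. It had 562 reads in wild type and 9 in the knockout, a ratio of 0.0144 (0.00620 to 0.0261), while the next lowest arm, miR-96-3p, was at 0.347. Its most abundant sequence, 22 nt long, had 310 wild type reads and 0 knockout reads, at least 67.9-fold lower in rpm. NaIO4-treated wild type held 643, the Hen1 knockout without NaIO4 562 and the immunoprecipitate 476. In rpm the 5 values were 42.3, 0, 62.5, 48.0 and 18.9, so this sequence was not lower with NaIO4. Of the wild type reads, 498 were 18 to 24 nt and 64 were 25 to 31 nt long.

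Other small RNA classes were higher or nearly level as shares of the knockout library, in about the measure of microRNAs or less. The ratio was 1.90 (1.88 to 1.91) for rRNA, 1.81 (1.80 to 1.82) for snoRNA, 1.58 (1.57 to 1.58) for tRNA, 1.13 (1.11 to 1.14) for snRNA and 1.02 (1.02 to 1.03) for mitochondrial fragments. Per microRNA read it was 1.06 for rRNA, 1.01 for snoRNA, 0.882 for tRNA, 0.631 for snRNA and 0.573 for mitochondrial fragments. The most abundant sequence of both libraries, 21 nt long and with a run of 16 nt of the annotated Mir5099, had 375207 and 458944 reads, 5.12% and 9.55%, a ratio of 1.86 (1.85 to 1.87). Of 403 genes of these classes with at least 200 reads, 132 (32.8%) had ratios of 2 or more, and 32 (7.94%) lay 2-fold or more below wild type. Of the 132, 64 were snoRNA and 54 rRNA genes, and near-identical 5S copies among the latter divide the same reads. These calls are in rpm, where microRNAs as a class stood at 1.79. Among tRNAs, fragments of Gly-GCC had 6498 rpm in wild type and 12846 in the knockout (ratio 1.98), those of a second Gly-GCC sequence 5814 and 13430 (2.31), while Asp-GTC, with 10022 rpm in the immunoprecipitate, had 2777 and 2232 (0.804). The Y RNA Rny1 had 2548 and 7094 rpm, and Rmrp, the RNA of RNase MRP, 990 and 1986.

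Some genes annotated as small RNAs were lost like piRNA source genes. Of 50 genes in the group of other small RNAs, 26 were at least 2-fold lower, and 18 of these at least 10-fold, 6 of them annotated as microRNA genes without a Mir symbol. Gm24576 had 322 rpm in wild type and 6.10 in the knockout, 52.0-fold lower (36.1 to 74.8), with 178 rpm in the immunoprecipitate, and Gm27316 had 362, 9.14 and 226. The snRNA gene Gm22710 had 122, 9.98 and 621 rpm, 12.1-fold lower (9.08 to 16.2), while Rnu5g, a U5 gene, had 321, 439 and 93.9. Near-identical copies share such reads, so single genes among them are uncertain.

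Reads of the targeted gene do not check the genotype, since small RNA reads do not measure an mRNA. Piwil2 (chromosome 14, 70372477 to 70429383) had 236 piRNA-like sense reads in wild type and 0 in the knockout, at least 51.7-fold lower, within the range of other source genes. Henmt1 had 17 and 0. The loss of MILI itself was thus taken from the labels.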

How the data were processed

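Small RNA libraries of cultured spermatogonial stem cells were compared, 1 wild type and 1 Mili knockout, out of 6 libraries. The deposited files hold each distinct sequence and its read count, which the authors made from their reads. The submitters' processing notes name Bowtie and mm10, without their role, and how adapters and read quality were handled is not recorded in the labels or files. Sequences of 18 to 35 nt were matched without mismatches to GENCODE M21 transcripts (GRCm38), to 1005 RefSeq hairpins and to 36 tRNA sequences and 5.8S rRNA, both written from memory because no file held them, with bwa 0.7.19-r1273, and annotated small RNAs took precedence over genes. Reads with several genes were divided evenly. A ratio has 0.5 added to each count, a count of 0 is set to a floor of 3 for a lower bound, and ratios with a count under 10 have exact conditional intervals. Genes needed 100 reads and microRNA arms and other small RNA genes 200 in both libraries together.

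The software was Python 3.11.15 with scipy 1.17.1, pandas 2.3.3 and numpy 2.4.6, and the counting of genes was tested on simulated data. The rule for named genes took the 12 with the most wild type reads, the 10 with the most knockout reads, the 10 lowest and 10 highest ratios among genes with at least 300 reads, and up to 5 members of each list. Genes and printed sequences outside it were chosen after their values were seen. The comparison, its members and the lists were chosen with earlier results of these data known. The alternatives were other scalings, length windows, read limits, matching rules and thinning. No genome sequence was used, so repeats and introns were not analysed here. A gene that the rule names is not reported here.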

Additional observations from a re-analysis of the deposited data

How the results depend on the processing

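The ratio of piRNA-like reads, 0.249, was below 1 under every alternative run. It was 0.139 per microRNA read, 0.149 per snRNA and snoRNA read, 0.243 per read of any length, 0.292 when the top 10 sequences by reads were left out and 0.407 over distinct sequences after thinning. It was 0.300 at 24 to 32 nt, 0.211 at 26 to 30 nt and 0.211 with 1 mismatch allowed to small RNAs. Under the alternatives chosen after seeing the data it was 0.127 without reads that share a run of 16 nt with small RNAs, 0.0278 for reads in the sense of genes and 0.293 with the tRNA sequences left out. Lost genes numbered 2958 of 3191, 3101 per microRNA read, 6143 of 7468 from 30 reads and 1111 of 1133 from 300 reads. Kept genes numbered 19, and 14 per microRNA read, 87 from 30 reads, 6 from 300 reads and 30 at 24 to 32 nt. Arms higher and lower numbered 2 and 6, but 75 and 1 per read of 18 to 35 nt, 8 and 13 from 50 reads, and 0 and 1 from 1000 reads. With the median set to 1, 1 arm was higher. The difference in first base T, -40.1 percentage points, was -32.2 at 24 to 32 nt, -39.9 at 26 to 30 nt, -43.6 for piRNA-like reads and -54.0 for reads in the sense of genes, the last chosen after seeing the data. Why these values moved was not tested beyond the reads or genes each setting takes in. No paired analysis was possible because each group has 1 library, and no replicate could be left out. The depth of the knockout library, 4808088 reads of 18 to 35 nt, limits how low a ratio can be read for genes with few wild type reads.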
